A study of Macaca mulatta with 20 samples.

Results

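Transcripts of 6 MAP kinase phosphatases, DUSP1, DUSP2, DUSP4, DUSP5, DUSP6 and DUSP10, were followed in the blood of irradiated rhesus macaques. MAP kinase phosphatases are dual-specificity enzymes that remove phosphate from both the threonine and the tyrosine of the activation loop of a MAP kinase, and so switch the kinase off. Many of their genes are induced by the same ERK, JNK and p38 pathways that they restrain, so that the phosphatase acts as a feedback brake. In blood leukocytes they are known for limiting cytokine production and the activation of myeloid and lymphoid cells.

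The animals were male rhesus macaques (Macaca mulatta) of Chinese origin, each given a single x-ray dose of 10 Gy to the midplane of the whole thorax under ketamine and dexmedetomidine. They belonged to a study arm without mitigator, antibiotic or steroid treatment, and they could receive the analgesics ketoprofen and buprenorphine when in pain. Globin transcripts were removed from whole blood RNA, which was then hybridized to one-color Agilent arrays of human design. There were 5 arrays from before irradiation and 5 each from days 2, 5 and 30 after it. The comparisons ask how blood transcripts differ at each day from the level of the same animals before irradiation, and how the days differ from each other. No array came from a sham-irradiated animal, so that irradiation and any other change since the first sample cannot be told apart. RNA of a pair of animals was pooled on an array that the labels do not identify.

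The members are the probes that carry one of the 6 gene names, are no control spots, and were well above background on at least 5 of the 20 arrays. Each gene had 1 probe of the 34127 on the array, and all 6 passed, as did 19961 probes in all. The probes of DUSP1, DUSP4, DUSP5, DUSP6 and DUSP10 were well above background on 20 arrays and that of DUSP2 on 18, and none was saturated. DUSP1 was printed on 10 spots per array, whose SD on the log2 scale had a median of 0.0740, and each of the others on 1 spot.

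The array annotation places the probes on the human genome build hg19. The DUSP1 probe (NM_004417) lies at chr5:172195296-172195355 on the minus strand, the DUSP2 probe (NM_004418) at chr2:96809903-96809962 on the minus strand and the DUSP4 probe (NM_001394) at chr8:29194382-29194441 on the minus strand. The DUSP5 probe (NM_004419) lies at chr10:112270900-112270959 on the plus strand, the DUSP6 probe (NM_001946) at chr12:89742144-89742203 on the minus strand and the DUSP10 probe (NM_007207) at chr1:221875773-221875832 on the minus strand. Exon and UTR annotation of this build was not used here. In the rhesus gene table the 6 genes lie on chromosomes 6, 13, 8, 9, 11 and 1, in the same order.

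The following probe sequences are shown because the levels of their genes below are the brightness of macaque RNA bound to them, and each probe is 60 bases long. For DUSP1, DUSP5 and DUSP6 the first 30 bases are printed, and for DUSP2 and DUSP10 the whole probe. The sequence of the DUSP4 probe is not printed. No letter is marked, since the matching macaque sequence was not used here.
DUSP1: tgtctactcctagaagaaccaaatacctca
DUSP2: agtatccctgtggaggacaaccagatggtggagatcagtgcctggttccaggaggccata
DUSP5: tgggaaaagagttcttcagatcatagacca
DUSP6: gcttgtgttgtcgcaaaggggataatctgg
DUSP10: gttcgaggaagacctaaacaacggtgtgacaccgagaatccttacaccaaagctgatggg
The GC content of the whole probes was 35% for DUSP1, 55% for DUSP2 and DUSP4, 41.7% for DUSP5, 45% for DUSP6 and 50% for DUSP10. Base content, position and match to the macaque transcript differ between probes, so levels of different genes are not set against each other.

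An array had 50.9% to 67.3% of its spots well above background. The 5 slides each carried 4 arrays, 1 of each group, and the position on the slide was the same for all arrays of a group, so that position and group cannot be told apart. Markers of blood cells were measured on the same arrays. At day 2, 11 of 11 platelet, 11 of 11 neutrophil and 8 of 9 monocyte and macrophage markers were higher than before irradiation, and 18 of 18 T and NK cell markers were lower. The median log2 change of the neutrophil markers was 0.94, 0.82 and 1.11 at days 2, 5 and 30, and that of the monocyte and macrophage markers was 0.54, 0.37 and 0.47. In whole blood, fewer cells of a type and less RNA per cell cannot be told apart, and the part of these shifts in the changes of the phosphatases was not tested.

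Across the family, DUSP6 levels exceeded the starting level of every animal on all 3 later days, by 1.55-fold to 1.69-fold on average. DUSP1 was on average 1.72-fold higher at day 2 and 2.00-fold higher at day 30, with a wide spread between animals, and DUSP5 was 1.77-fold higher at day 30. DUSP4 was lower at day 30 in 5 of 5 pairs, as were 10.5% of all probes. The intervals of DUSP2, DUSP4, DUSP5 and DUSP10 included 0 at every day, and that of DUSP1 included 0 at days 2 and 5. No difference of the 6 genes reached the threshold for a call over all probes. Levels are given as the log2 processed signal minus the 75th percentile of the array, and a change is the difference of 2 such levels. Arrays with the same replicate number were treated as a pair, and a probe was called where limma gave it a p-value under 0.005 with a false discovery rate, by Benjamini-Hochberg over all 19961 probes, under 10%. By this rule 0 of the 6 phosphatases were called in any of the 6 comparisons between times. The same rule called 12 probes (0.0601%) at day 2, 0 (0.00%) at day 5 and 0 (0.00%) at day 30 against pre-irradiation, and 0 (0.00%), 10 (0.0501%) and 0 (0.00%) probes for day 5 against day 2, day 30 against day 2 and day 30 against day 5.

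At an unadjusted p-value under 0.05, 1 phosphatase was higher at day 2 (8.47% of all probes), 1 at day 5 (7.35%) and 2 at day 30 (7.43%), and 0 were lower (6.55%, 3.82% and 10.1% of all probes). Against day 2, 0 of the 6 were higher (2.17% of all probes) or lower (1.39%) at day 5, and 0 were higher (5.40%) and 1 lower (7.44%) at day 30. Between days 5 and 30, 2 were higher (1.84%) and 1 was lower (6.64%) at the later day. The split of all probes moved with the scaling of the arrays. After scaling to the median of each array in place of the 75th percentile, 746 probes were higher and 1249 lower at day 5, against 1468 and 762, and 1851 were higher and 1587 lower at day 30, against 1483 and 2013.

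**Figure D1:**
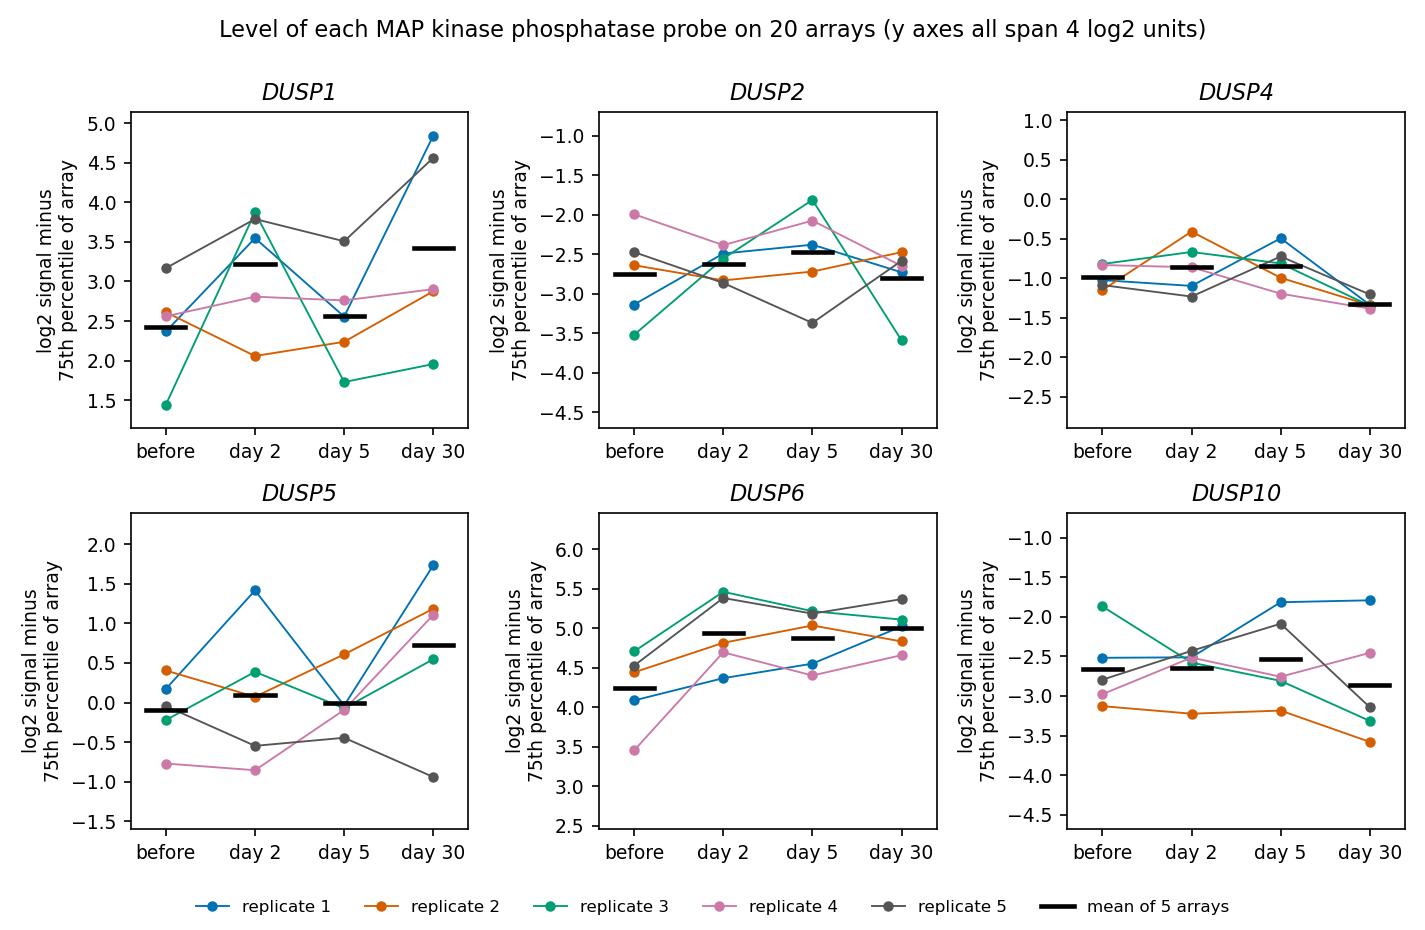
Level of each of the 6 phosphatase probes on the 20 arrays, with the time of sampling on the x axis and the log2 processed signal minus the 75th percentile of the array on the y axis. Colored lines join the arrays of 1 replicate number, and black bars are the means of 5 arrays. The DUSP6 lines all lie above their starting point at days 2, 5 and 30, the DUSP1 lines spread between 1.44 and 4.85, and the DUSP4 points at day 30 lie between -1.39 and -1.20, below every point of DUSP4 before irradiation.

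DUSP6, the cytoplasmic phosphatase that acts on ERK with high selectivity, was the member that stood above pre-irradiation in every pair at all 3 days. Before irradiation its log2 levels were 4.09, 4.44, 4.71, 3.45 and 4.53 in replicates 1 to 5. At day 2 they were 4.37, 4.81, 5.46, 4.69 and 5.38. Replicate 4 started lowest of the 5 and replicate 3 highest, and all 5 stood above their own starting level at day 2. The levels were 4.55, 5.03, 5.21, 4.40 and 5.18 at day 5. They were 5.02, 4.83, 5.11, 4.66 and 5.37 at day 30. Every array of the later days stood above the pre-irradiation array of its own number, although the groups overlapped, with 3, 3 and 4 of the 5 arrays at days 2, 5 and 30 above the highest array from before irradiation.

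The difference of DUSP6 from pre-irradiation on the log2 scale was 0.70 at day 2 (95% interval 0.28 to 1.12, adjusted p = 0.195 from limma). It was 0.63 at day 5 (0.30 to 0.97, adjusted p = 0.289 from limma) and 0.76 at day 30 (0.32 to 1.19, adjusted p = 0.147 from limma). These correspond to 1.63-fold, 1.55-fold and 1.69-fold. Probes higher in 5 of 5 pairs made up 6.17% of all probes at day 2, 7.24% at day 5 and 7.41% at day 30, and 177 (0.888%) were so at each of the 3 days, DUSP6 among them. At an unadjusted p-value under 0.005 at each of the 3 days, 17 probes (0.0852%) were higher, and DUSP6 was 1 of them. Its day 2 p-value was 0.00499 from limma, just under this threshold. With 1 replicate left out, that p-value ran from 0.00457 to 0.0250. The limma p-value then ran from 0.00440 to 0.0127 at day 5 and from 0.00504 to 0.0162 at day 30. Passing this threshold also depended on the setting. With quantile normalization the limma p-values at the 3 days were 0.0114, 0.00756 and 0.00589. With all 20 arrays in 1 fit they were 0.000390, 0.000944 and 0.000193. The 3 comparisons share the pre-irradiation arrays and are not independent of each other.

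The largest pairwise differences of DUSP6 were those of replicate 4, 1.24, 0.95 and 1.21 at days 2, 5 and 30, and this was the replicate with the lowest starting level. The smallest was 0.28, in replicate 1 at day 2. Leaving out 1 replicate at a time, the difference lay between 0.57 and 0.81 at day 2, between 0.56 and 0.68 at day 5 and between 0.64 and 0.85 at day 30. Between the later days DUSP6 differed by -0.07 (day 5 minus day 2, 95% interval -0.45 to 0.32), 0.05 (day 30 minus day 2, -0.35 to 0.46) and 0.12 (day 30 minus day 5, -0.29 to 0.54). All 3 intervals include 0, and their ends reach from -0.45 at the lowest to 0.54 at the highest. The smallest shift between the later days that these arrays could detect was not tested.

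Whether DUSP6 was called depended on the setting. With all 20 arrays in 1 fit it was called at day 2 (adjusted p = 0.0561 from limma) and day 30 (adjusted p = 0.0911), where the same fit called 343 probes (1.72%) and 121 (0.606%). It was also called at day 30 when tested among probes well above background on all 20 arrays, with an intensity trend and with normexp background correction on the median background of each array, where the calls over all probes were 694, 451 and 508. Over all settings tried its adjusted p-value lay between 0.0561 and 0.652 at day 2, between 0.113 and 0.936 at day 5 and between 0.0833 and 0.300 at day 30. With normexp background correction the difference at day 2 was 0.22. In that setting the fitted mean background was below 0 on 6 arrays, and with the median background of each array, a setting chosen after seeing the data, it was below 0 on 0 arrays.

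Levels of DUSP6 also varied with those of blood cell markers. Over the 20 arrays Pearson's r between DUSP6 and the median level of 9 monocyte and macrophage markers was 0.74 (Spearman's rho 0.63), and 0.59 without the 2 arrays farthest from the median of the markers. With the mean of each time removed, r was 0.68 with these markers and -0.69 with the platelet markers, for which it was -0.18 before that. With the T and NK cell markers r was -0.47 over the 20 arrays (rho -0.59), and -0.23 with the mean of each time removed. The corresponding r with the neutrophil markers was 0.63 over 20 arrays (rho 0.30) and 0.28 without the 2 farthest arrays, so that it rested on those arrays, of which the pre-irradiation array of replicate 4 is one. The arrays of 1 replicate number share an animal, so these values are descriptions. The part of these cells in the DUSP6 difference was not tested.

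**Figure D2:**
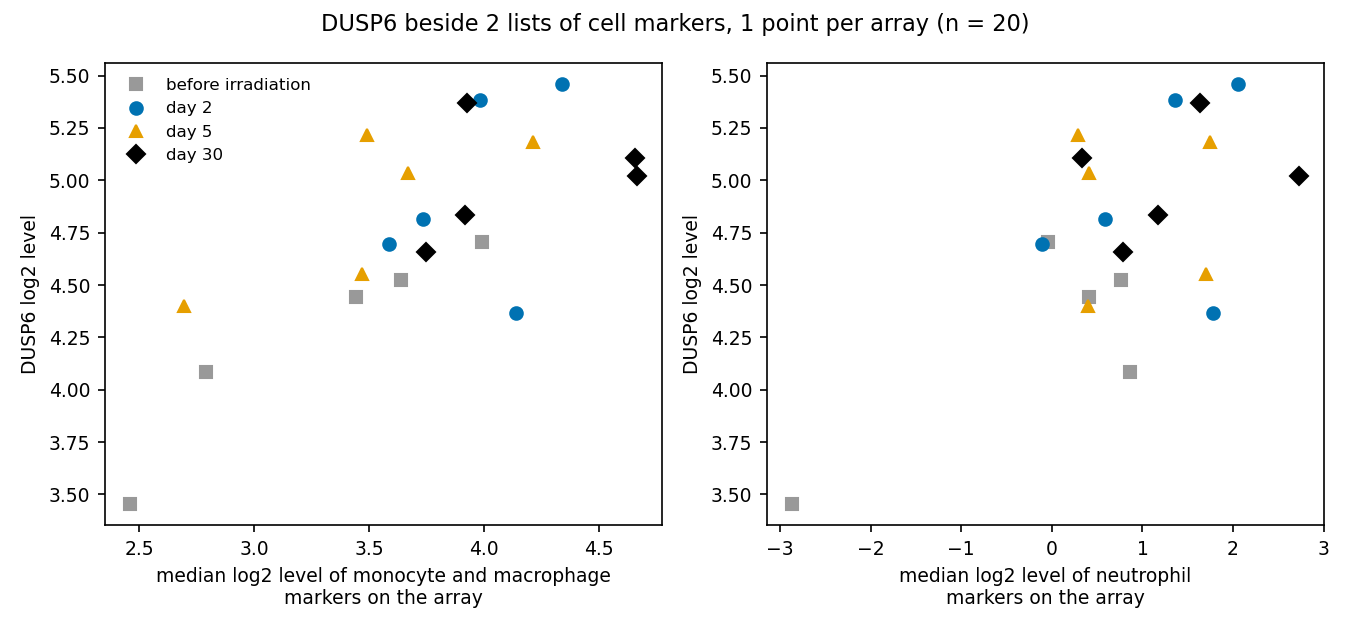
Log2 level of DUSP6 (y axis) against the median log2 level of the monocyte and macrophage markers (left) and the neutrophil markers (right) on the same array, with 1 point for each of the 20 arrays and a symbol for each time. Points rise from lower left to upper right in the left plot (r = 0.74), and in the right plot the pre-irradiation array of replicate 4 stands apart at -2.87 on the x axis.

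DUSP1, a nuclear phosphatase of p38 and JNK that stress and glucocorticoids induce, varied most of the 6 over the arrays, over a 10.6-fold range. Its log2 levels before irradiation were 2.37, 2.61, 1.44, 2.56 and 3.17 in replicates 1 to 5. At day 2 they were 3.55, 2.06, 3.87, 2.81 and 3.79. Replicate 3 moved from the lowest level of its group to the highest, and replicate 2 was the single animal below its own start. Day 5 levels were 2.56, 2.24, 1.73, 2.76 and 3.51, and day 30 levels were 4.85, 2.88, 1.96, 2.90 and 4.57. At day 5 the values were back near the starting levels, and at day 30 replicates 1 and 5 stood far above the other 3, with every group overlapping pre-irradiation.

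DUSP1 was 0.79 higher on the log2 scale at day 2 (95% interval -0.10 to 1.67, adjusted p = 0.380 from limma), in 4 of 5 pairs. The difference was 0.13 at day 5 (-0.24 to 0.50) and 1.0 at day 30 (0.25 to 1.75, adjusted p = 0.195 from limma), where it was 2.00-fold and positive in 5 of 5 pairs. Single animals decided much of its size. Without replicate 3 the day 2 value was 0.37, and without replicate 1 the day 30 value was 0.63. With normexp the day 2 value was 0.30. At day 30 DUSP1 no longer had an unadjusted p-value under 0.05 without the replicate block or when each probe was tested on its own. The pairs at day 30 ranged from 0.26 in replicate 2 to 2.48 in replicate 1.

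From day 5 to day 30 DUSP1 was 0.87 higher (0.15 to 1.59, adjusted p = 0.562 from limma), in 5 of 5 pairs, as were 3.66% of all probes. Without replicate 1 this value was 0.52. From day 2 to day 5 it differed by -0.66 on the log2 scale (-1.44 to 0.12), in 4 of 5 pairs, and without replicate 3 the value was -0.29. The replicate means of DUSP1 over the 4 times ran from 2.25 in replicate 3 to 3.76 in replicate 5, a range of 1.51 that exceeds the range of 1.0 between the means of the 4 times. Over the 20 arrays DUSP1 had r = 0.61 with the median of the neutrophil markers (rho 0.72, and r = 0.75 without the 2 farthest arrays) and r = -0.61 with that of the T and NK cell markers. The part of these cells in the DUSP1 differences was not tested.

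DUSP5, a nuclear phosphatase that acts on ERK alone, differed mainly at day 30. Its log2 levels were 0.17, 0.41, -0.22, -0.77 and -0.05 before irradiation, and 1.42, 0.07, 0.39, -0.86 and -0.55 at day 2. They were -0.04, 0.61, -0.07, -0.09 and -0.45 at day 5, and 1.74, 1.19, 0.55, 1.11 and -0.94 at day 30. At day 30, 4 of the 5 arrays stood above the highest array from before irradiation and the array of replicate 5 below the lowest. The difference at day 30 was 0.82 on the log2 scale (95% interval -0.01 to 1.66, adjusted p = 0.292 from limma), in 4 of 5 pairs. With 1 replicate left out it ran from 0.56 without replicate 4 to 1.25 without replicate 5.

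At day 2 the difference of DUSP5 was 0.19 (-0.43 to 0.81) and at day 5 it was 0.08 (-0.35 to 0.52), and the day 5 value changed sign under median scaling (-0.04). Between days 5 and 30 it was 0.74 higher (0.03 to 1.44, adjusted p = 0.586 from limma), and without replicate 1 this value was 0.48. Replicate 5 had the lowest mean DUSP5 level over the 4 times, -0.50, and the highest mean DUSP1 level, so the animals were not ordered alike for the 2 genes. Over the 20 arrays r between DUSP1 and DUSP5 was 0.15.

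DUSP4, a nuclear phosphatase of ERK, JNK and p38, was the member whose day 30 arrays did not overlap those from before irradiation. Before irradiation its log2 levels were -1.02, -1.15, -0.82, -0.83 and -1.09, and at day 2 they were -1.10, -0.41, -0.67, -0.86 and -1.23. The levels at day 5 were -0.49, -0.99, -0.81, -1.19 and -0.72, and those at day 30 were -1.34, -1.34, -1.35, -1.39 and -1.20. All 5 arrays of day 30 lay below every array of day 5 and of pre-irradiation. Across the array, groups that did not overlap, with the later one lower, were found for 1.19% of all probes at day 30 against pre-irradiation and for 0.401% at day 30 against day 5.

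The DUSP4 difference from pre-irradiation was -0.34 on the log2 scale at day 30 (95% interval -0.72 to 0.04, adjusted p = 0.328 from limma), or 0.790-fold, and it was negative in 5 of 5 pairs, as for 10.5% of all probes. With normexp background correction it was -0.13. At days 2 and 5 the differences were 0.13 (-0.28 to 0.54) and 0.14 (-0.26 to 0.54). Day 30 minus day 2 was -0.47 on the log2 scale (-0.88 to -0.06, adjusted p = 0.363 from limma) in 4 of 5 pairs. It was -0.48 against day 5 (-0.88 to -0.07, adjusted p = 0.564 from limma) and negative in 5 of 5 pairs, as for 5.88% of all probes. That value was -0.29 under median scaling and -0.21 with normexp. The SD over the 5 arrays was 0.07 at day 30 against 0.15 before irradiation, 0.33 at day 2 and 0.27 at day 5. The signal of this probe was between 94.9 and 184 units on all arrays, and the error that Feature Extraction gave for it had a median of 10.4% of the signal.

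DUSP2, a nuclear phosphatase of activated lymphoid and myeloid cells, had a dim probe, with 19.7 to 70.4 signal units. Its log2 levels were -3.14, -2.64, -3.52, -2.0 and -2.47 before irradiation, and -2.49, -2.83, -2.56, -2.39 and -2.86 at day 2. They were -2.38, -2.72, -1.81, -2.08 and -3.37 at day 5, and -2.73, -2.47, -3.59, -2.65 and -2.58 at day 30. The groups overlapped throughout, and single animals moved in both directions. The differences from pre-irradiation were 0.13 at day 2 (95% interval -0.43 to 0.69), 0.28 at day 5 (-0.52 to 1.08) and -0.05 at day 30 (-0.50 to 0.40), the last of which was positive under quantile normalization (0.02) and median scaling (0.01). Each was positive in 2 of 5 pairs. At days 2 and 5 these were the pairs of replicates 1 and 3. The pre-irradiation arrays of these replicates, at 23.1 and 19.7 signal units, were those on which the probe was not well above background.

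DUSP10, which acts mainly on p38 and JNK, was also dim, with 23.9 to 87.8 signal units. Before irradiation its log2 levels were -2.52, -3.13, -1.87, -2.98 and -2.79, and at day 2 they were -2.51, -3.22, -2.58, -2.51 and -2.43. The day 5 levels were -1.81, -3.18, -2.81, -2.76 and -2.09, and the day 30 levels were -1.79, -3.58, -3.32, -2.45 and -3.14. Replicate 3 was highest before irradiation and the second lowest at every later time, and replicate 2 was lowest at all 4 times. The differences from pre-irradiation were 0.01 at day 2 (95% interval -0.46 to 0.47), 0.13 at day 5 (-0.47 to 0.72), with -0.06 under quantile normalization, and -0.20 at day 30 (-0.91 to 0.51). The replicate means of DUSP10 spanned 1.12 against 0.33 for the means of the times.

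**Figure D3:**
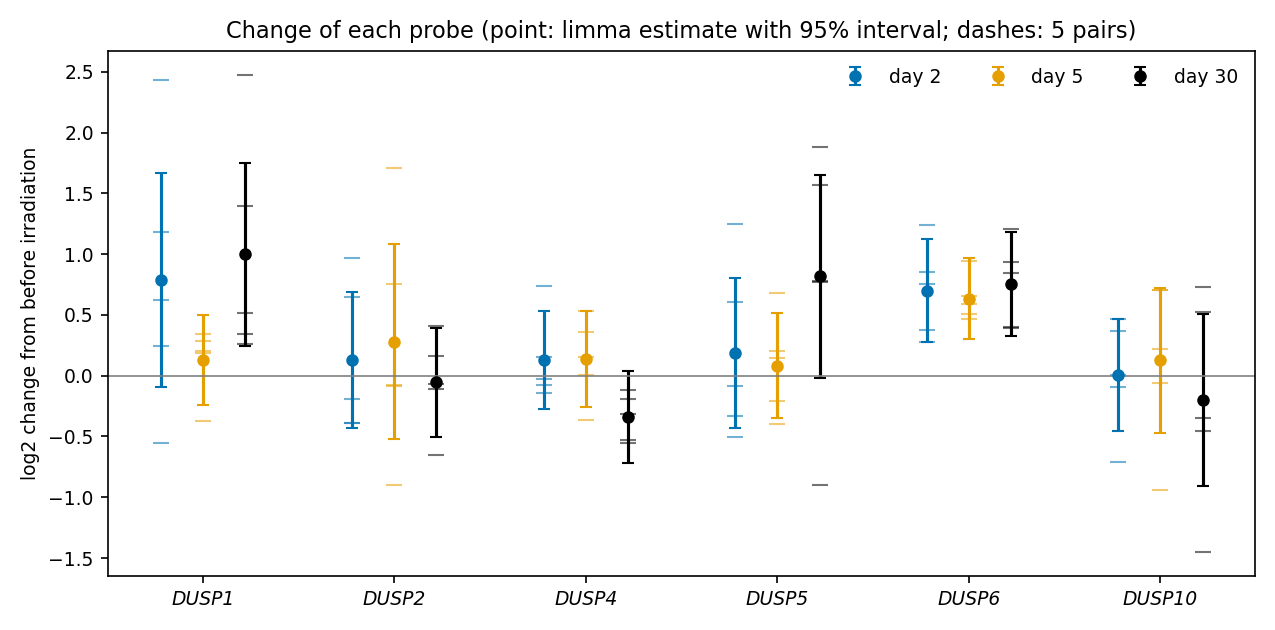
Difference of each phosphatase probe from pre-irradiation on the log2 scale (y axis) at days 2, 5 and 30. Points are limma estimates over 5 pairs, bars are their 95% intervals, and dashes are the 5 pairs. The intervals of DUSP6 lie above 0 at all 3 days and that of DUSP1 lies above 0 at day 30, while the other intervals include 0.

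The intervals show the precision that 5 pairs gave. For DUSP2 the day 5 interval runs from 0.697-fold to 2.12-fold, and for DUSP4 the day 30 interval from 0.608-fold to 1.03-fold. Those of DUSP10 run from 0.729-fold to 1.38-fold at day 2 and from 0.534-fold to 1.42-fold at day 30. These ranges describe the precision of each estimate. The smallest difference that this number of arrays could detect was not tested.

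Among the other MAP kinase phosphatases on the array, DUSP8 and DUSP9 were tested, and DUSP7 and DUSP16 did not pass the filter on dim probes. DUSP8, which acts on JNK and p38, had a value of -0.78 at day 30 (adjusted p = 0.129 from limma), in 5 of 5 pairs, and its values at days 2 and 5 were -0.04 and -0.15. DUSP9, a cytoplasmic relative of DUSP6, was 0.37 higher at day 2 (adjusted p = 0.326 from limma) in 5 of 5 pairs, 0.25 higher at day 5 and 0.02 higher at day 30. The atypical phosphatase DUSP3 was 1.33 higher at day 2 (adjusted p = 0.143 from limma) and 0.28 and 0.17 higher at days 5 and 30. DUSP14, another atypical member, had -0.90, -0.75 and -0.54, negative in 5 of 5 pairs on each occasion. The probes of DUSP3 and DUSP14 were dim, with mean log2 levels of -2.67 and -2.46 before irradiation.

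Around the phosphatases, 82 of 95 listed genes of the MAP kinase pathway were tested, with 1 probe each. At an unadjusted p-value under 0.05, 10 were higher and 8 lower at day 2, 4 higher and 5 lower at day 5, and 5 higher and 8 lower at day 30. Among all probes the shares were 8.47% higher and 6.55% lower at day 2, 7.35% and 3.82% at day 5, and 7.43% and 10.1% at day 30. The median log2 change of the listed genes was 0.01, -0.05 and 0.08. The median over the 6 phosphatases was 0.16, 0.13 and 0.35, and that over all probes was -0.04, 0.03 and -0.02. At day 30, 3 of the 6 phosphatases were higher and 3 lower, so that their median describes no single gene. Of the listed genes, SPRY2 was the one called at any of the 3 days. SPRY2, an inhibitor of receptor tyrosine kinase signalling to ERK, fell by 1.29 on the log2 scale at day 2 (adjusted p = 0.0965 from limma, and was lower in every pair). It was called in 8 of 17 other settings, over which its day 2 value ran from -1.36 to -0.29. Its values at days 5 and 30 were -1.07 and 0.00, and the day 5 value ran from -1.25 to -0.55. The mean log2 level of SPRY2 was -1.26 before irradiation and a dim -2.55 at day 2.

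Of the MAP kinases themselves, 9 were tested. At an unadjusted p-value under 0.05, 1 was higher (8.47% of all probes) and 1 lower (6.55%) at day 2. At day 5, 0 were higher (7.35%) or lower (3.82%), and at day 30, 0 were higher (7.43%) and 1 lower (10.1%). MAPK3, the kinase ERK1, had values of 0.58 (adjusted p = 0.234 from limma, 5 of 5 pairs), 0.52 and 0.11 at days 2, 5 and 30. The p38 kinase MAPK14 had 0.20, 0.29 and 0.12, and the JNK genes MAPK8 and MAPK9 had -0.11, -0.01 and 0.08, and -0.56, -0.11 and -0.41. The probes of MAPK8 and MAPK9 were dim, with mean log2 levels of -2.36 and -2.65 before irradiation. MAPK12, another p38 kinase, had -1.81 at day 30 (adjusted p = 0.147 from limma), in 5 of 5 pairs. Its mean log2 level went from -0.79 before irradiation to a dim -2.60 at day 30. Upstream, the values at the 3 days were 0.61, 0.50 and 0.63 for MAP3K11, a kinase that acts above JNK and p38. MAP2K6, a kinase that activates p38, had -0.62, -0.60 and -0.72, and TAOK2 had -0.17, -0.21 and -0.40. The MAP2K6 probe was dim too, with mean log2 levels of -2.02 before irradiation and -2.74 at day 30. PTPN7, a tyrosine phosphatase of ERK and p38 in leukocytes, had -0.50, -0.29 and -0.37, and MKNK1, a kinase that ERK and p38 activate, had 0.88, 0.37 and 0.18.

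The listed immediate-early and ERK target genes did not follow a single course. Of 23 tested immediate-early and ERK target genes, 3 were higher and 2 lower at day 2 at an unadjusted p-value under 0.05. At day 5, 2 were higher and 1 lower, and at day 30, 4 were higher and 2 lower. The shares of all probes were 8.47% higher and 6.55% lower at day 2. They were 7.35% and 3.82% at day 5, and 7.43% and 10.1% at day 30. FOS, whose product pairs with JUN in the transcription factor AP-1, had values of 0.54, -0.04 and 0.42, JUN had 0.18, -0.29 and 0.24, and EGR1 had 0.27, -0.03 and 0.09. JUNB was 0.95 higher at day 2 (adjusted p = 0.166 from limma), in 5 of 5 pairs, 0.60 higher at day 5 and 0.27 higher at day 30. ZFP36, which speeds the decay of cytokine transcripts, was 0.79, 0.31 and 0.48 higher. The nuclear receptors NR4A2 and NR4A3 had -0.57 and -0.73 at day 2, with -0.03 and -0.75 at day 5 and 0.01 and -0.19 at day 30. MYC had -0.16, -0.40 and -0.02, FOSB had 0.22, 0.28 and 0.51, and FOSL1 had -0.21, -0.29 and -0.67. The probes of NR4A2, NR4A3, FOSB and FOSL1 were dim, with mean log2 levels of -2.48, -3.51, -4.10 and -3.65 before irradiation.

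**Figure D4:**
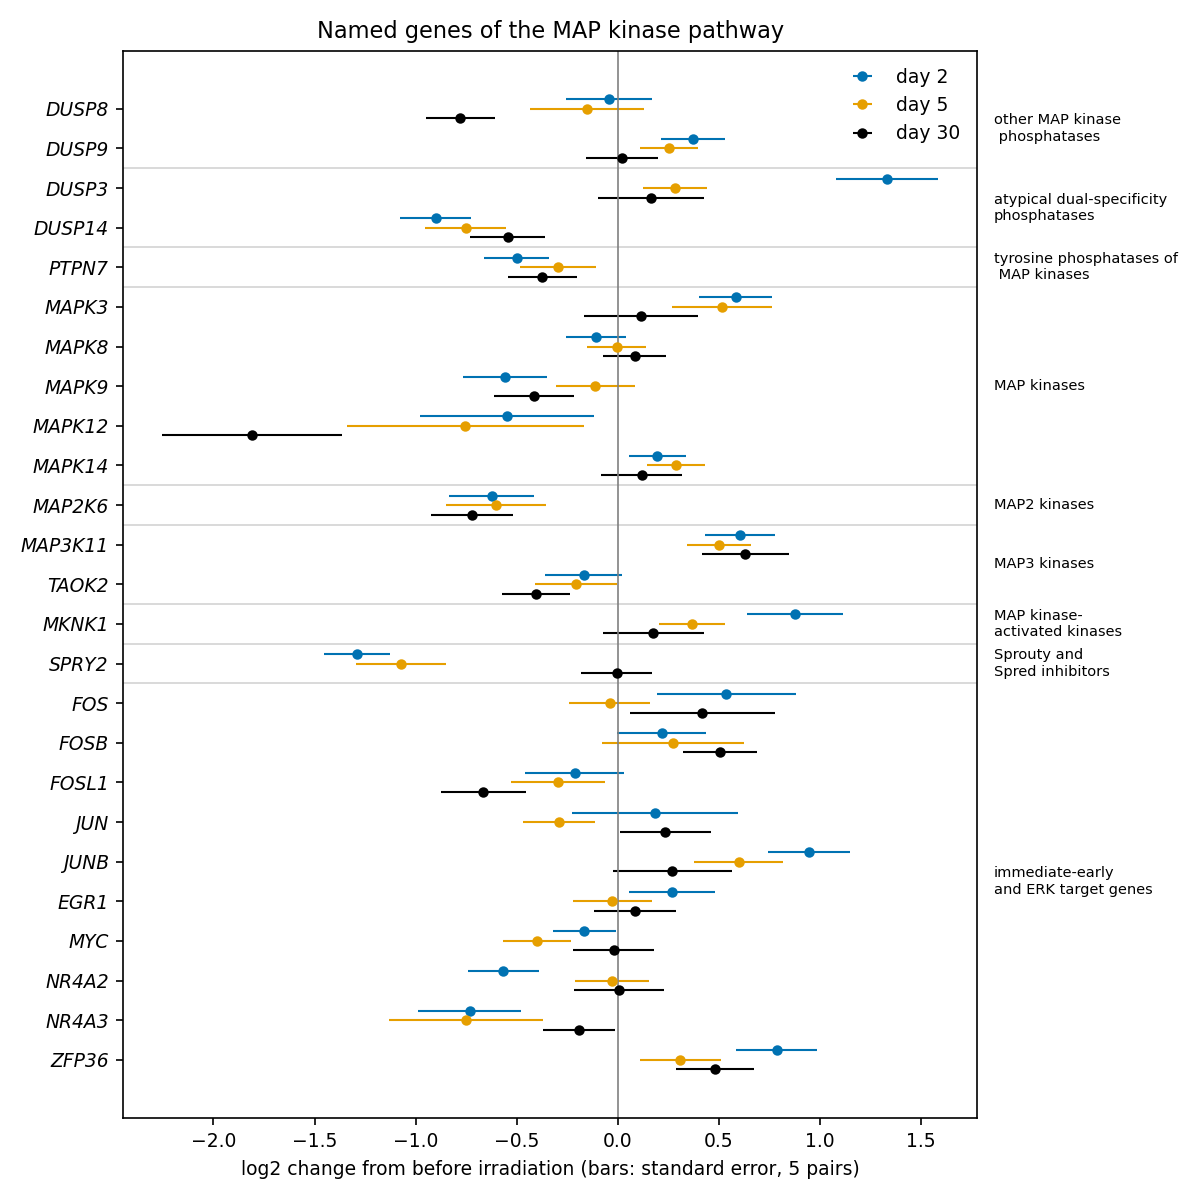
Log2 difference from pre-irradiation (x axis) at days 2, 5 and 30 of 25 genes of the MAP kinase pathway, grouped by their lists. Points are limma estimates over 5 pairs and bars are standard errors. SPRY2 lies at -1.29 and -1.07 at days 2 and 5 and at 0.00 at day 30, DUSP3 lies at 1.33 at day 2, and MAPK12 lies at -1.81 at day 30.

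The 6 phosphatases did not vary as a group. Among their 15 pairs, r over the 20 arrays ran from -0.42 (DUSP4 with DUSP5) to 0.32 (DUSP1 with DUSP6). The likeness of other genes was searched among 15322 probes measured and well above background on all 20 arrays, and genes among the 3 with the highest r are given for each phosphatase. For DUSP1 they were CHIC2 (r = 0.94) and NFIL3 (0.94), and for DUSP6 they were NACC2 (0.91), CSF1R (0.88) and TNFRSF21 (0.87). CSF1R, the receptor for the monocyte growth factor CSF1, is also 1 of the 9 tested monocyte and macrophage markers, and its own differences from pre-irradiation were 0.63, 0.37 and 0.73 at days 2, 5 and 30.

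For DUSP4 the nearest patterns were those of NPPA (r = 0.87), CHST6 (0.87) and ALKBH5 (0.85), each with its lowest mean level at day 30. For DUSP5 they were S100A2 (0.74), DHRS3 (0.72) and CORO2A (0.71), for DUSP10 PPM1B (0.80), PIAS1 (0.79) and BRWD3 (0.78), and for DUSP2 RUVBL1 (0.77), AMT (0.76) and GAMT (0.75). These values are descriptions over 20 arrays that share animals, slides and scaling, taken as the highest of a search over all those probes.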

How the data were processed

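The authors deposited the Agilent Feature Extraction output of each of the 20 one-color arrays, whose processed signal is an intensity after background subtraction without scaling between arrays, and a table of log2 values. The file headers name version 12.0.2.2, and the submitters' processing notes name 10.7. Class comparisons of the study were made in BRB-ArrayTools, paired by animal. The deposited log2 table holds 5885 rows, in which DUSP1, DUSP5, DUSP6 and DUSP10 are listed. On every array, 96.9% or more of these values match the log2 processed signal after adding a single constant (tolerance 0.001).

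Control spots and spots marked as outliers were left out, the log2 signals of a probe were averaged, and the 75th percentile of all non-control spots of the array was subtracted. The 19961 probes well above background on at least 5 arrays, with at least 4 of 5 pairs measured, were tested in limma 3.58.1 (R 4.3.3), each comparison on the arrays of its 2 groups, blocked by replicate number. Replicate numbers were taken to mark animals because the study's methods pair by animal. After the mean of each group was removed, r was averaged between an array and the arrays of each number in the other groups. This mean was highest for the array's own number on 17 of the 20 arrays. The mean r was 0.28 within a number and -0.07 between numbers. Of the 30 pairs of arrays within a number, 25 had r over 0.1, and the lowest r was -0.16. Gene lists were tested with 1 probe per gene, the brightest one tested. Genes named from the pathway lists are those with an unadjusted p-value under 0.05 and 1 direction in every pair at 1 or more days, with MAPK3, MAPK8, MAPK14, FOS, JUN and EGR1. Some genes that these rules select are not reported here. The members and lists were chosen with earlier results of these data known. The fits were tested on simulated data. Alternatives were quantile, median and normexp processing, other filters, the deposited log2 values, other models, and each replicate left out. The number of arrays limits the precision. Figures were drawn with Python 3.11.15 and matplotlib 3.10.9.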

Additional observations from a re-analysis of the deposited data

Results flagged for a closer look

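Within the 24 sets of 5 arrays (6 phosphatases at 4 times), 3 had a sample far from the other 4, and chance gives about 1 such set in 20. DUSP2 at day 30 was -3.59 in replicate 3, and the next lowest array was -2.73. DUSP10 at day 2 was -3.22 in replicate 2, and the next lowest was -2.58. DUSP4 at day 30 was -1.20 in replicate 5, and the next highest was -1.34, a gap of 0.13 in a group with an SD of 0.07. Of the 24 sets of median marker levels, 3 had such a sample. The neutrophil markers before irradiation were at -2.87 in replicate 4, with the next at -0.04. The platelet markers before irradiation were at 0.55 in replicate 3, with the next at 2.05, and the B cell markers at day 30 were at 0.85 in replicate 1, with the next at 1.83. The pre-irradiation array of replicate 4 is also the one with the lowest DUSP6 level, 3.45, and without replicate 4 the DUSP6 difference was 0.57 at day 2, 0.56 at day 5 and 0.64 at day 30.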

How the results depend on the processing

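Each of the 18 differences from pre-irradiation and 5 differences between days was recomputed under up to 17 other settings. Of these values, 352 kept both direction and side of the threshold for a call, 21 changed direction and 7 passed the threshold. The 7 were DUSP6 at day 2 in 2 settings (all 20 arrays in 1 fit, and that fit with the slide added) and at day 30 in 4 (all 20 arrays, an intensity trend, probes well above background on all arrays, and normexp with the median background), and DUSP1 at day 30 with normexp. All values that changed direction belonged to DUSP2, DUSP4, DUSP5 and DUSP10. Without the replicate block the number of phosphatases at an unadjusted p-value under 0.05 was 1, 1 and 2 at days 2, 5 and 30 and 1 for day 30 against day 5, where the paired fit gave 3. At day 30 these 2 were DUSP4 and DUSP6, in place of DUSP1 and DUSP6. DUSP2 had no value among probes well above background on all arrays, and DUSP2 and DUSP4 had none in the deposited log2 values.

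The counts at an unadjusted p-value under 0.05 moved as follows. At day 2 the count was 0 with normexp and 2 with the deposited log2 values, and at day 30, where the paired fit gave 2, it was 4 with normexp on the median background, a setting added after seeing the data, and 2 or 3 in the others. For day 30 against day 2 it was 0 with median scaling and with the deposited values, and 2 with either normexp setting. For day 30 against day 5 it was 1 with the slide and replicate block and 1 with a test of each probe on its own. Leaving out 1 replicate at a time gave 1 to 2 at day 2, 2 to 3 at day 30, 0 to 1 for day 5 against day 2, 0 to 2 for day 30 against day 2 and 0 to 2 for day 30 against day 5.

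Directions changed for small differences. DUSP2 was -0.026 at day 2 with normexp on the median background, and at day 30 0.020 with quantile normalization, 0.012 with median scaling and 0.13 with normexp. DUSP5 was -0.10 at day 2 with normexp and -0.036 at day 5 with median scaling. DUSP10 was -0.017 at day 2 with normexp on the median background, -0.059 at day 5 with quantile normalization and 0.14 at day 30 with normexp. With 1 replicate left out, DUSP2 ran from -0.082 to 0.26 at day 2, from -0.075 to 0.58 at day 5 and from -0.17 to 0.10 at day 30, and DUSP4 from -0.023 to 0.20 at day 2. DUSP5 ran from -0.077 to 0.36 at day 2 and from -0.064 to 0.21 at day 5, and DUSP10 from -0.11 to 0.18, from -0.018 to 0.39 and from -0.43 to 0.11 at days 2, 5 and 30. With normexp, whose fitted background fell below 0 on 6 arrays, 952 of all probes were called at day 30 and with the median background 508, against 0. Other settings also gave calls at day 30: 694 among probes well above background on all arrays, 451 with an intensity trend, 334 with the deposited values, 121 with all 20 arrays in 1 fit, 7 with the slide added and 1 with a test of each probe on its own. The cause of these changes was not tested.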
